A study of Arabidopsis thaliana with 12 samples.

Results

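AT4G05070 and AT2G36480 are a pair of Arabidopsis thaliana genes that differed in opposite directions between the laf6 mutant and WT, AT4G05070 being higher in laf6 and AT2G36480 lower. Each was read by 1 feature annotated with that gene alone, so these are 2 of the 692 features with a single gene, on arrays with 3439 features in all. They were chosen from their laf6 and WT intensities on these same arrays, so the difference between the groups is given below as a description, with no test. The groups were 6 arrays of laf6 and 6 arrays of WT, all hybridised with total RNA of dark-adapted plants of the Landsberg ecotype. The labels describe laf6 as a mutant that lacks the transporter atABC1. They give no age, no tissue and no mutagen, and do not say that the arrays of a group came from separate plants, so the spread between arrays may be partly technical.

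The RefSeq gene table lists LAF6 ("long after FR") and ATABC1 as older names of ABCI8, AT4G04770. The encoded protein, also called SUFB, is a component of the plastid SUF system, which builds iron-sulfur clusters. Such clusters sit in photosystem I, in ferredoxin and in enzymes of several plastid pathways. The laf6 mutant is known for its altered response to far-red light, which plants sense through phytochrome A. ABCI8 was not analysed here, so the labels could not be checked against the transcript of the mutated gene.

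For AT4G05070 and AT2G36480 themselves the annotation gives locus names and older clone-based names only, C17L7.2 for AT4G05070 and F1O11.23 for AT2G36480, and no function is assigned to either here. The locus names place AT4G05070 on chromosome 4 and AT2G36480 on chromosome 2. Both are listed as protein-coding, AT4G05070 with 1 RefSeq transcript and AT2G36480 with 2, and the annotation does not say which of these a feature reads. No feature annotated with several genes listed either of them, so each gene has a single reading per array. No source used here names a genome build for the array's design, so no coordinates are printed.

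The deposited values are intensities without a unit, running from 0 to about 100 on each array. Median intensities were 0.178 to 0.202 over the laf6 arrays and 0.218 to 0.289 over the WT arrays. The 20 brightest features held 39.3 to 41.6% of the summed intensity in laf6 and 29.7 to 31.6% in WT. Because of such differences, values were also compared after quantile normalization, which gives every array the same distribution. Other scalings are compared further down.

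AT4G05070 was higher in laf6. Its deposited intensity on laf6 arrays 1 to 6 was 6.83, 7.79, 8.12, 8.82, 6.49 and 5.06. On WT arrays 1 to 6 it was 1.89, 1.82, 2.55, 2.52, 1.14 and 1.45. Every laf6 array lay above every WT array, and the lowest laf6 array (replicate 6) was still 1.98 times the highest WT array (replicate 3). Arrays 3 and 4 were the highest in each group, and arrays 5 and 6 the lowest. The deposited means were 7.19 ± 1.35 in laf6 and 1.90 ± 0.564 in WT (SD, n = 6 each), a ratio of 3.79.

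After quantile normalization AT4G05070 averaged 7.29 ± 1.02 in laf6 and 1.66 ± 0.375 in WT (SD, n = 6 each), and the closest laf6 and WT arrays were 2.70-fold apart. The log2 difference, laf6 minus WT, was 2.16 ± 0.16 (SE, n = 6 each). Over the 36 pairs of a laf6 with a WT array it ran from 1.43 to 2.95. Taken between arrays of the same replicate number, it was between 1.97 and 2.23 for 5 of the numbers, and 2.66 for replicate 5. WT replicate 5 was the lowest of all 12 arrays for this gene, and leaving it out gave a difference of 2.06.

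AT2G36480 showed the opposite pattern. Its deposited intensity on laf6 arrays 1 to 6 was 0.186, 0.128, 0.209, 0.133, 0.128 and 0.124. On WT arrays 1 to 6 it was 1.502, 1.46, 2.35, 2.12, 1.55 and 1.47. Every laf6 array lay below every WT array, with a 7.01-fold step between the highest laf6 array (replicate 3) and the lowest WT array (replicate 2). In laf6, replicates 1 and 3 stood above the other 4 arrays, which lay close together. In WT, replicates 3 and 4 stood above the other 4.

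The deposited means of AT2G36480 were 0.151 ± 0.0366 in laf6 and 1.74 ± 0.391 in WT (SD, n = 6 each), so WT was 11.5 times laf6. After quantile normalization the means were 0.178 ± 0.0453 in laf6 and 1.52 ± 0.242 in WT, a ratio of 8.55 for WT over laf6, with the closest arrays 5.17-fold apart. The log2 difference, laf6 minus WT, was -3.12 ± 0.17 (SE, n = 6 each), and over the 36 pairs of arrays it ran from -3.83 to -2.37. Between arrays of the same replicate number the difference was smallest in size for replicate 1, at -2.49, and largest for replicate 6, at -3.46.

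**Figure D1:**
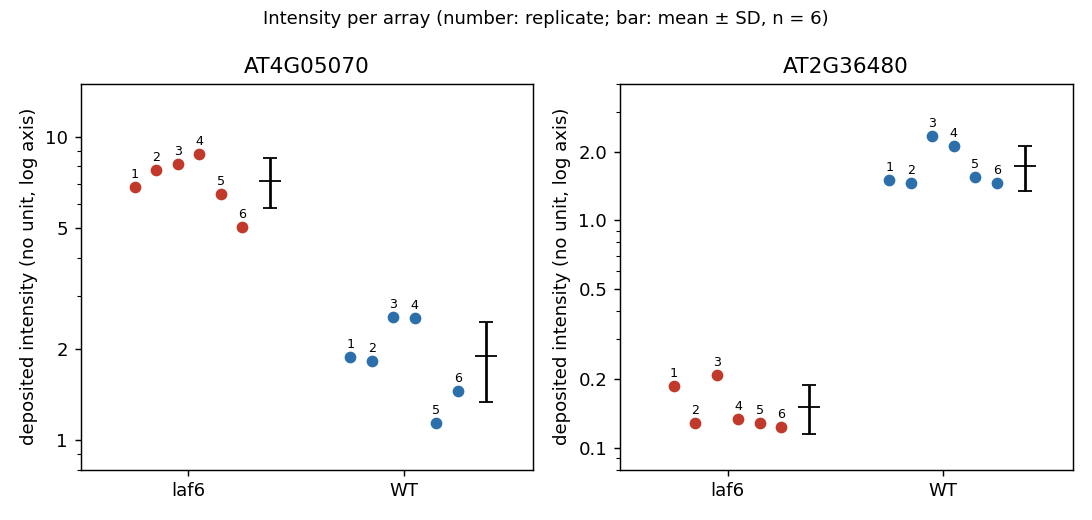
Deposited intensity of AT4G05070 (left) and AT2G36480 (right) on each laf6 and WT array, on a log axis without a unit. Points are arrays with their replicate number, and the bars show the mean ± SD of 6 arrays. The laf6 arrays sit between 5.06 and 8.82 for AT4G05070, all above the WT arrays, and between 0.124 and 0.209 for AT2G36480, all below them.

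The place of a feature among all features of its array does not change when the whole array is rescaled. AT4G05070 stood at the 97.6th to 98.3rd percentile of the laf6 arrays and at the 89.7th to 94.6th percentile of the WT arrays. AT2G36480 stood at the 36.9th to 52.6th percentile of the laf6 arrays and at the 90.8th to 94.0th percentile of the WT arrays. AT4G05070 was thus among the bright features in both groups, while AT2G36480 was bright in WT and near the middle of the array in laf6.

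**Figure D2:**
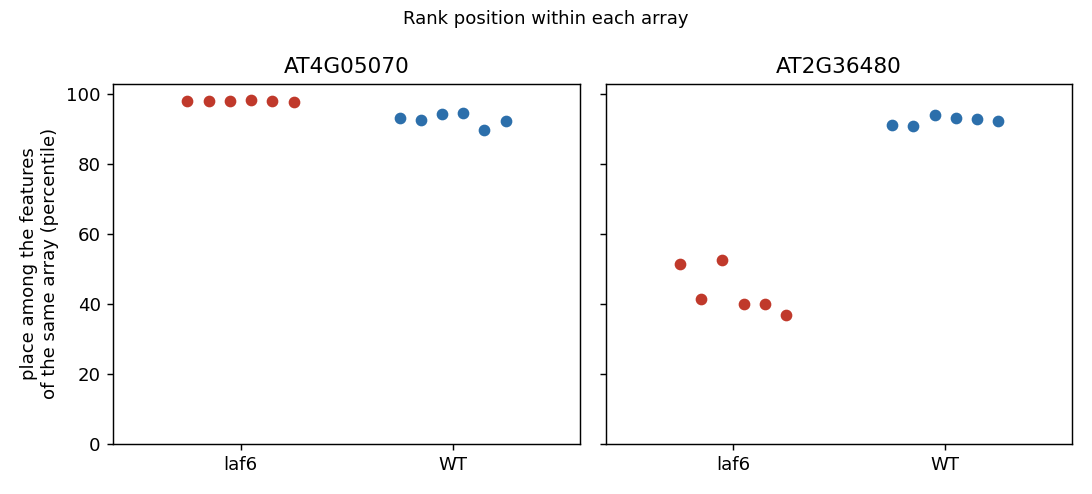
Percentile of AT4G05070 (left) and AT2G36480 (right) among the 3439 features of the same array, with 1 point per array. AT4G05070 stands at 89.7 or above on all 12 arrays, and AT2G36480 stands between 36.9 and 52.6 in laf6 and between 90.8 and 94.0 in WT.

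Relative to the median feature of the same array, AT4G05070 was 25.4 to 43.8 times as bright in laf6 and 5.12 to 9.10 times as bright in WT. AT2G36480 was 0.623 to 1.10 times the array median in laf6 and 5.91 to 8.41 times in WT. Neither gene was listed at 0 on any array, and none of its values reached the top of the scale. The dimmest reading of AT2G36480 after normalization, 0.133 on laf6 replicate 6, stood well above the floor of 0.00597 under which values were not distinguished. That floor is the 1st percentile of the positive values and not a limit of detection, which the labels do not give.

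The ratio of the features within an array also drops any common scale factor. Feature levels cannot be set against each other, so only the change of this ratio between arrays is read. The log2 ratio of AT4G05070 over AT2G36480, from deposited values, ran from 5.20 to 6.05 over the laf6 arrays and from -0.44 to 0.33 over the WT arrays. Its mean was 5.58 ± 0.36 in laf6 and 0.094 ± 0.29 in WT (SD, n = 6 each), a difference of 5.49. Since the pair was chosen for moving in opposite directions on these arrays, this ratio restates the choice.

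The readings varied less between the arrays of a group than most features with a value above 0 on all 12 arrays. Beside features of like brightness they varied more than the median, except for AT2G36480 in laf6. The standard deviation within groups, on the log2 scale, was 0.28 for AT4G05070 and 0.30 for AT2G36480. Its median was 0.38 over the 2192 features with a value above 0 on all 12 arrays, and a smaller value was found for 30.9% of these features beside AT4G05070 and for 34.6% beside AT2G36480. AT4G05070 varied more than most features of its own brightness, taken as features whose group mean lay within 0.5 on the log2 scale. Its log2 SD over the laf6 arrays was 0.21, against a median of 0.13 for 34 such features. Over the WT arrays its log2 SD was 0.34, against 0.17 for 159 features. AT2G36480 had a log2 SD of 0.35 over the laf6 arrays, below the median of 0.65 for 517 features as dim. Over the WT arrays its log2 SD was 0.23, against 0.17 for 180 features.

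The arrays differed widely as a whole, which is the background for both genes. With limma and Benjamini-Hochberg adjustment over all features, 26.2% of the 3439 features passed an adjusted p of 0.05 (12.4% higher and 13.8% lower in laf6). Complete separation of the groups was found in 8.52% of all features with laf6 higher and in 9.33% with laf6 lower. Of the 448 features with a single gene and a value above 0 on all 12 arrays, 23.2% were separated, 45 with laf6 higher and 59 with laf6 lower. Separation of the arrays by itself therefore does not set AT4G05070 and AT2G36480 apart from many other genes, and their selection fixed it.

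The places of both genes among the others are given next, by size of the difference and by the step between the closest arrays. The pair was chosen as the strongest well-measured changes on these same arrays, so these places describe the choice and do not test it. Among the 448 single-gene features with a value on all 12 arrays, AT2G36480 had the largest decrease after quantile normalization, and it was also the largest among all 2192 features with such values. As deposited and with median, 75th percentile or cyclic loess scaling it came second, behind AT-HF. After quantile normalization AT4G05070 had the third largest increase of the 448 and stood in 15th place among the 2192. Of the 448 it came first as deposited and with median or 75th percentile scaling, the floor at the 5th percentile or the offset of 0.1, and second with cyclic loess. Of the 14 features above it after quantile normalization, 2 had a single gene, 1 had several and 11 had no entry in the annotation. The 2 single-gene features were AT3G50270 and AT1G51080, which are named here after their values were seen. AT3G50270 had a log2 difference of 2.36 ± 0.59 (SE) with normalized means of 0.171 ± 0.0477 in laf6 and 0.0443 ± 0.0321 in WT (SD, n = 6 each). AT1G51080 had 2.17 ± 0.32, with means of 0.209 ± 0.0384 in laf6 and 0.0505 ± 0.0248 in WT. Both lay low on the intensity scale, and their standard errors were larger than that of AT4G05070. With the offset of 0.1, their differences were 0.92 for AT3G50270 and 1.04 for AT1G51080.

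When the genes were ordered by the step between the closest laf6 and WT arrays, AT4G05070 came first of the 448 on the higher side and AT2G36480 first on the lower side. The step of AT4G05070, 2.70-fold, was followed closely by those of AT1G32730 (2.63-fold) and AT3G06570 (2.45-fold). The step of AT2G36480, 5.17-fold, was followed by those of AT-HF (3.72-fold) and AT4G31530 (3.39-fold). Among the 2192 features with a value on all 12 arrays, whatever their annotation, the step of AT4G05070 came 9th and that of AT2G36480 first, and among all 3439 features they came 10th and 11th. By size of the difference, 16 single-gene features had a larger increase than AT4G05070, of which 14 were listed at 0 on at least 1 WT array. A larger decrease than that of AT2G36480 was found for 6 single-gene features, all listed at 0 on at least 1 laf6 array.

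The genes just behind them in size of difference were of several kinds. On the higher side they were SIRB, the ferrochelatase of siroheme synthesis, with a log2 difference of 1.89 ± 0.66, AT1G32730 with 1.78 ± 0.096, and PSAN, a subunit of photosystem I, with 1.72 ± 0.091 (SE, n = 6 each). SIRB overlapped between the groups, while AT1G32730 and PSAN did not. On the lower side they were AT-HF, an enzyme gene of histidine synthesis, with -3.02 ± 0.47, AT3G06200 with -2.44 ± 0.27, and AT4G31530 with -1.98 ± 0.049. AT-HF lay close to AT2G36480 in size, with normalized means of 0.173 ± 0.0967 in laf6 and 1.14 ± 0.0656 in WT (SD, n = 6 each). These genes were ordered by the same differences, so their values are descriptions as well. For AT4G31530, every WT array but replicate 5 had the same normalized value (61.3), since quantile normalization gives equal places the same value. Its small SE is to be read with these ties in mind.

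**Figure D3:**
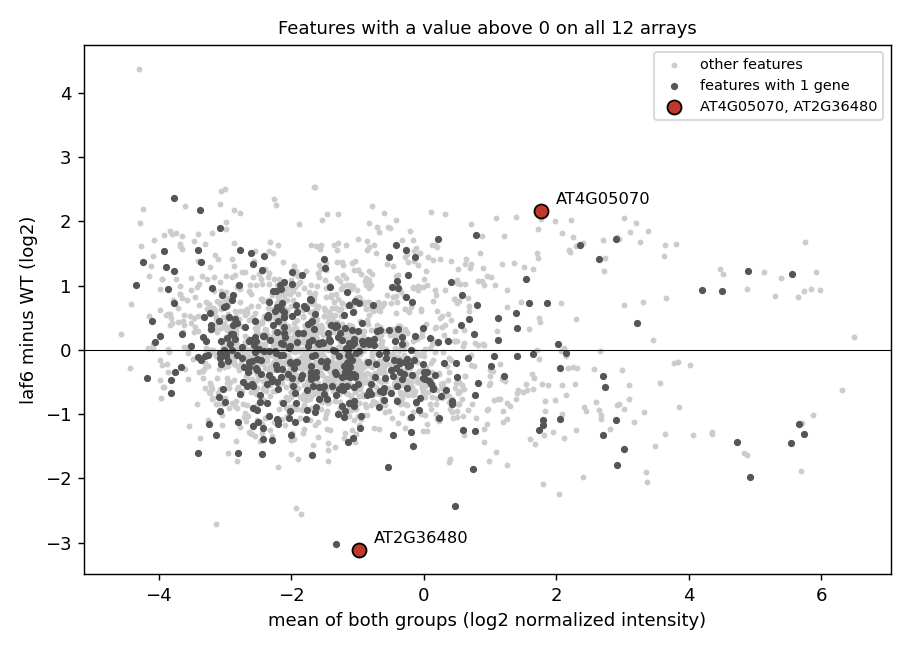
Log2 difference between laf6 and WT against mean log2 normalized intensity for the 2192 features with a value above 0 on all 12 arrays. Grey points are other features, dark points features with a single gene, and red points AT4G05070 (2.16) and AT2G36480 (-3.12), with AT2G36480 as the lowest point of the plot.

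Neither difference changed sign under the settings tried. Over 24 alternative settings the log2 difference of AT4G05070 ran from 1.96 to 2.38. Its lowest value came from the values as deposited and its highest from scaling to the 75th percentile. That of AT2G36480 ran from -3.53 with the values as deposited to -2.54 with an offset of 0.1 added before log2, which weighs dim readings less. Over all features the median difference was -0.45 as deposited and -0.021 after quantile normalization, and the differences of the pair are read against these shifts. Leaving out any 1 array gave 2.06 to 2.26 for AT4G05070 and -3.20 to -3.05 for AT2G36480.

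**Figure D4:**
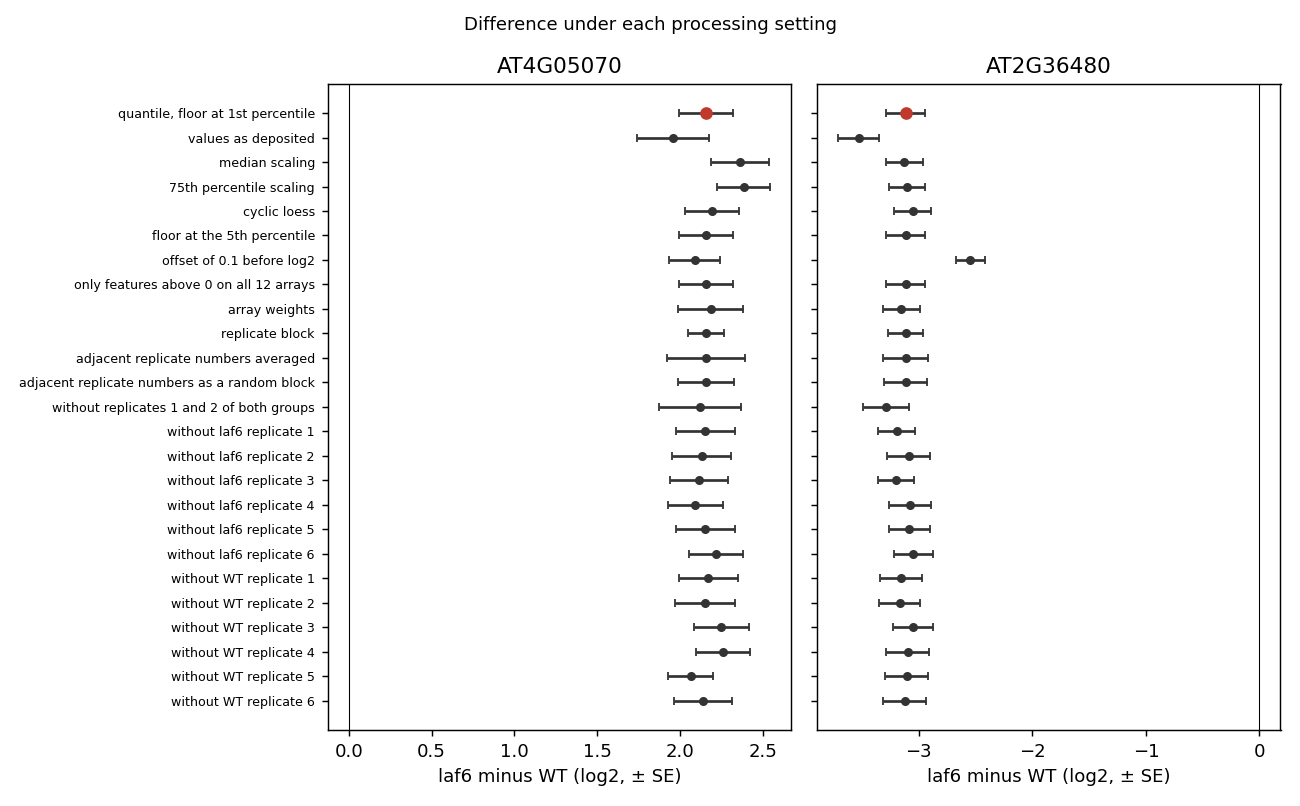
Log2 difference between laf6 and WT (± SE) of AT4G05070 (left) and AT2G36480 (right) under the setting used throughout (red, top) and 24 alternatives. All values lie between 1.96 and 2.38 for AT4G05070 and between -3.53 and -2.54 for AT2G36480.

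Arrays with adjacent replicate numbers were also compared, since such arrays may be repeats of a sample. Averaged over replicates 1 and 2, 3 and 4, and 5 and 6, the normalized intensity of AT4G05070 was 7.10, 8.38 and 6.39 in laf6 and 1.61, 2.08 and 1.29 in WT. The same averages of AT2G36480 were 0.196, 0.195 and 0.142 in laf6 and 1.26, 1.77 and 1.52 in WT. For each of the 3 averages laf6 and WT stayed apart, with log2 differences of 2.01 to 2.31 for AT4G05070 and of -3.42 to -2.71 for AT2G36480.

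Genes with a similar pattern over the arrays were sought among the other single-gene features with a value on all 12 arrays. Pearson's r of the log2 values over the 12 arrays is dominated by the difference between laf6 and WT, so it mostly finds genes that differ between the groups with little spread. For AT4G05070 the 5 highest were AT3G26630 (r = 0.98), AT3G04210 (0.97), AT3G06570 (0.97), AT5G38360 (0.96) and AT5G19210 (0.96). All 5 were higher on every laf6 array than on every WT array, and by less than AT4G05070 was. Their log2 differences after quantile normalization lay between 0.82 ± 0.085 for AT3G04210 and 1.64 ± 0.11 for AT5G19210 (SE), and their order depended on the scaling. With median scaling AT5G38360 had the largest, 2.14, against 1.18 after quantile normalization, and AT3G26630 had 1.62 against 0.91. AT5G38360 and AT3G26630 were among the bright features, with median normalized intensities of 74.8 and 31.1 in laf6 and of 31.1 and 16.9 in WT. Both had tied normalized values, among them laf6 replicates 1, 3 and 4 for AT5G38360 and 2, 4 and 6 for AT3G26630.

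For AT2G36480 the 5 highest were NdhS (r = 0.99), AT4G31530 (0.99), AT4G18180 (0.98), AT4G22830 (0.98) and AT3G09250 (0.97). NdhS is a subunit of the chloroplast NDH complex, which takes electrons from ferredoxin in cyclic electron flow. All 5 were lower on every laf6 array than on every WT array. Their log2 differences ran from -1.98 ± 0.049 for AT4G31530 to -1.09 ± 0.082 for NdhS (SE) after quantile normalization, all smaller in size than that of AT2G36480. With median scaling they were -1.16 for AT4G31530, -0.74 for NdhS and -0.36 for AT4G22830, against -1.15 for AT4G22830 after quantile normalization. The SE of AT4G31530 carries the ties noted above. Normalized values of AT4G22830 were tied as well, on WT replicates 1 and 2, 3 and 4, and 5 and 6, so its SE carries ties too.

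Deviations from the group means leave the difference between laf6 and WT out and follow only how arrays of a group differ. By this measure, the 3 genes most like AT4G05070 were AT4G22830 (r = 0.75 over 12 arrays), AT1G05860 (0.73) and AT1G74070 (0.68). AT1G05860 lay at the floor on WT replicate 5, which was also the lowest array of AT4G05070. The r of AT1G05860 was not computed without that array. AT4G22830 was lower in laf6, with a log2 difference of -1.15 ± 0.10, opposite to AT4G05070. Its r of 0.75 is to be read with its tied values in mind. The 3 genes most like AT2G36480 were AT4G20760 (0.81), AT4G13680 (0.79) and NdhS (0.76). NdhS was thus the one gene among the most similar to AT2G36480 by both measures. AT4G22830 was also named by both, but for AT2G36480 over the 12 arrays and for AT4G05070 by deviations. Of the genes closest to AT4G05070 over the 12 arrays, AT3G06570 followed its deviations hardly at all (0.10) and AT3G04210 most (0.63).

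The deviations of AT4G05070 and AT2G36480 from their group means had r = 0.34 with each other over the 12 arrays. Over the other 447 candidates the median was 0.025 for AT4G05070 and -0.046 for AT2G36480, with extremes of -0.84 and 0.75, and of -0.89 and 0.81. All these arrays share their normalization and, for adjacent replicate numbers, possibly a sample. Same-numbered laf6 and WT arrays also tended to deviate together (correlations of 0.0947 to 0.223 over 2192 features), which can enter the values above. The correlations of deviations are therefore descriptions.

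**Figure D5:**
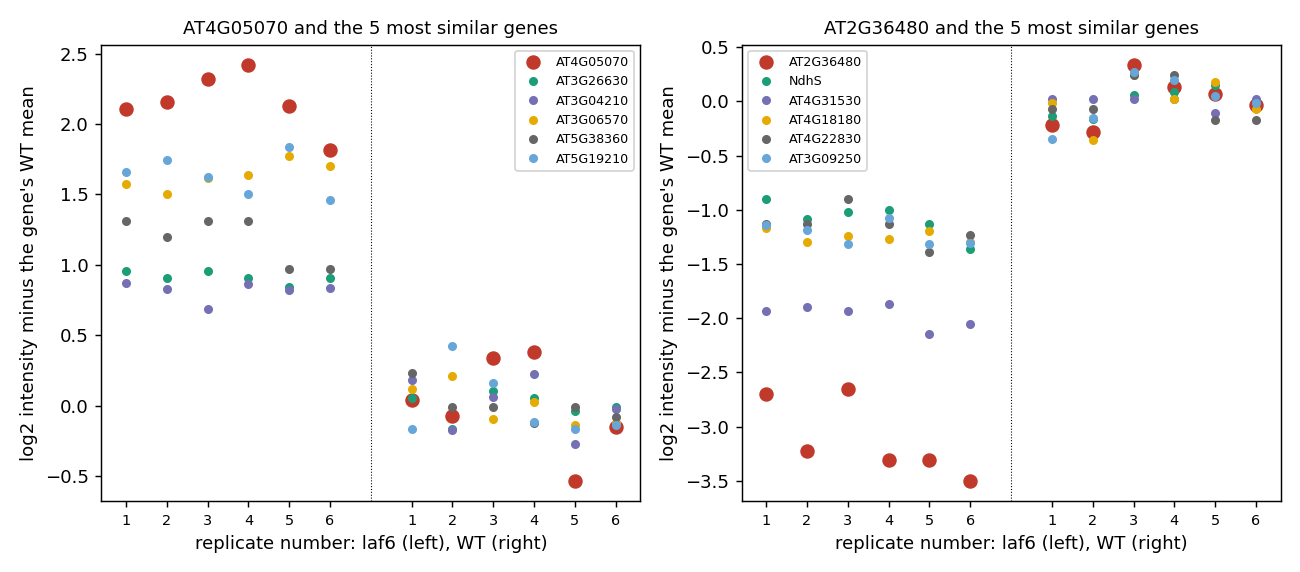
Log2 normalized intensity minus each gene's WT mean on the 6 laf6 (left of the dotted line) and 6 WT arrays (right), for AT4G05070 and the 5 genes with the highest Pearson correlation to it (left panel) and for AT2G36480 and its 5 (right panel). AT4G05070 (2.16 on average in laf6) and AT2G36480 (-3.12) lie farther from 0 in laf6 than the genes most like them.

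Few neighbours on the chromosome were measured. Of the 20 annotated genes closest to AT4G05070, 10 on each side, none had a single-gene feature and 1 was listed in a feature with several genes. Of the 20 closest to AT2G36480, 1 had a single-gene feature and 2 were listed in features with several genes. That gene, AT2G36560, was 9 places after AT2G36480 and close to the floor, listed at 0 on 4 laf6 arrays and 3 WT arrays. Its log2 difference was 0.19 ± 0.78 (SE; limma adjusted p = 0.902), and its sign turned under 6 of 23 alternatives. The nearest protein-coding genes, AT4G05060 and AT4G05071 beside AT4G05070 and AT2G36470 and DML1, a DNA demethylase gene, beside AT2G36480, had no single-gene feature and were not analysed here.

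Counted over protein-coding genes, AT4G05030 was 4 places before AT4G05070. It lies outside the window of annotated genes and is named after its values were seen. Its deposited intensity on laf6 arrays 1 to 6 was 0.0422, 0.0376, 0.0757, 0.163, 0.0858 and 0.106. On the WT arrays it was listed at 0 on 4 and stood at 0.0254 and 0.0766 on replicates 3 and 4. The groups overlapped as deposited, and after normalization they did not. After normalization AT4G05030 was higher in laf6, with a log2 difference of 3.26 ± 0.57 (SE, n = 6 each), a size that depends on the floor. It was 1.62 with the floor at the 5th percentile and 0.86 with an offset of 0.1. The difference stayed above 0 under all 23 alternatives. As the gene was named after its values were seen, the difference is a description with no test.

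AT4G05070 lies on the same chromosome as the LAF6 locus itself, 37 protein-coding genes after ABCI8 in the annotation, and AT4G05030 lies 33 after it. Among the 100 protein-coding genes nearest to ABCI8, 50 on each side, a window chosen after the values were known, 3 had a single-gene feature. The third was AT4G04370, 37 places before ABCI8. Its normalized intensity averaged 0.426 ± 0.0877 in laf6 and 0.612 ± 0.106 in WT (SD, n = 6 each), and it fell by 0.53 ± 0.17 on the log2 scale (SE; limma adjusted p = 0.0402). That call was lost under 12 of 24 alternatives (adjusted p from 0.00177 to 0.120). Among them were the fits without laf6 replicate 1, 4, 5 or 6 and without WT replicate 3, 4, 5 or 6, which gave adjusted p-values of 0.0529 to 0.0870. Of the 3 genes in the window, AT4G05070 was chosen for its difference and AT4G05030 was named after its values were seen. AT4G04370 was reached only through that window, so its adjusted p is read as a description. No count is therefore read against the 26.2% of all features that passed.

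AT2G36480 lies on another chromosome than ABCI8. Gene lists could not be used to place either gene in a pathway. The 5 lists, drawn up from general knowledge of gene families and not from any annotation used here, held 63 different genes: 25 of mRNA 3′ end processing, 15 of jasmonate synthesis and wound response, 11 of ENTH/VHS or CID domain proteins, 7 of wound-responsive families and 8 seed, root and pollen markers, with 3 genes in more than 1 list. None of the 63 was listed for any feature, alone or with other genes, so 0 were called in either direction, and the tissue composition of the plants was not checked.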

How the data were processed

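The deposited table holds 1 intensity per feature and array on a linear scale. Neither labels nor headers name the scanner, or say how background and scale were treated. Of the deposited intensities, 15.7% were exactly 0, and the highest array median was 1.62 times the lowest. Values were quantile-normalized between arrays, zeros were kept, and every value under the 1st percentile of the positive ones (0.00597) was set to that percentile, the floor, before log2. Groups were compared with limma 3.58.1 in R 4.3.3 (lmFit and eBayes, no covariates), with Benjamini-Hochberg adjustment over 3439 features and a threshold of 0.05. Standard errors come from each feature's own spread. In simulated data the fit recovered 59% of the smaller and 87% of the larger known changes, and 10 of its 156 calls were false. The simulated noise was independent between arrays and held no zeros, unlike the deposited values, so this says little about dim features or related arrays.

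Features were named from an older platform annotation, which lists 1 gene for 692 features, several for 870 and none for 1877. Through Entrez identifiers, 690 of the 692 matched the RefSeq table of TAIR10.1, used for names and gene order only. The genes described, the rule for naming others (most similar by correlation, next in size, neighbours within 10 annotated genes, list members) and the lists were chosen with earlier results of these data known. A planned comparison of protein sequences was not made, and no sequence is printed.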

Additional observations from a re-analysis of the deposited data

Results flagged for a closer look

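No array stood far from the other 5 of its group for AT4G05070 or AT2G36480. A Dixon test at the 95% level marks about 1 in 20 groups by chance. It was made on 52 groups of 6 arrays and flagged 1 array in 6 of them, for 6 other genes named above. On the log2 scale of normalized intensity, these were laf6 replicate 3 for AT3G04210 (0.013, low), laf6 replicate 4 for AT4G04370 (-1.87, low), WT replicate 2 for SIRB (-6.27, low), WT replicate 1 for AT5G38360 (5.20, high), WT replicate 5 for AT4G31530 (5.81, low) and WT replicate 5 for AT1G05860 (-7.39, at the floor). For AT4G31530 the other WT arrays were tied after quantile normalization, at 0.022 from the gene's WT mean, with replicate 5 at -0.11. With such ties any deviation is flagged, however small. For the other genes no explanation was tested.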

How the results depend on the processing

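AT4G05070 moved by less than its spread between arrays under all 24 alternatives. AT2G36480 moved by more with the values as deposited (-3.53) and with an offset of 0.1 before log2 (-2.54), and the change in log2 ratio of AT4G05070 over AT2G36480 moved with that offset alone (4.63 against 5.27). Neither gene turned. Of all features, 901 passed the threshold, against 545 after averaging arrays of adjacent number, which leaves 3 values per group, 1155 as deposited and 812 to 895 with 1 array left out. With the replicate number as a replicate block, 872 features passed, the differences of AT4G05070 and AT2G36480 were 2.16 and -3.12 as without it, and AT4G04370 missed the threshold (adjusted p = 0.0959). Same-numbered arrays deviated together in 5 of 6 pairs (correlations of 0.0947 to 0.223 over 2192 features, with 0.1 as the limit), and all 12 arrays were closest to their own number. This is a hint from the data and not from the labels. AT2G36560, near the floor, turned to -0.33 as deposited, -0.23 with median scaling, -0.21 with 75th percentile scaling and -0.22 with cyclic loess, and ran from -0.32 to 0.58 with 1 array left out, below 0 without laf6 replicate 3 (-0.083) or 4 (-0.32). AT4G05030 aside, 21 other genes were described without a test, with 504 values, of which 34 moved by more than the spread, for 16 genes. The moves were 12 as deposited, 7 with median and 8 with 75th percentile scaling, 3 with cyclic loess and 4 with the offset. AT4G20760 stood at 0.36, and at -0.062 as deposited. AT1G05860 (-0.34) ran from -1.15 to 0.13 with 1 array left out, above 0 without laf6 replicate 5 (0.13) or 6 (0.014). The cause was not tested. The comparison of protein matches was not run. The number of arrays and the floor limit the precision of dim features.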
